A study of Mus musculus with 3 samples.

Results

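The GDNF-RET signal, by which the kidney mesenchyme drives branching of the ureteric bud, was followed through 10 genes in mouse kidney explants. Probe sets that carried exactly 1 of the 10 gene symbols were taken, with the probe set of highest mean over the arrays standing for each gene. All 10 genes were found, out of 19938 genes measured, and all 10 lay at or above the level floor on every array. They fall into 3 genes for the receptor Ret, its co-receptor Gfra1 and the ligand Gdnf, and 7 genes that act downstream, Wnt11, Etv4, Etv5, Spry1, Dusp6, Sox8 and Sox9.

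Kidneys of C57BL/6 embryos at embryonic day 11.5 had been kept on Transwell filters, porous supports at the surface of the medium, for 48 h. The media were serum-free DMEM to which retinoic acid was added (retinoic acid), serum-free DMEM alone (serum-free), and DMEM with 10% fetal bovine serum (serum). Each medium is represented by 1 Affymetrix Mouse Gene 1.0 ST array, so no value has an error and no difference could be tested, and what follows describes 3 arrays. The sources used here give neither the dose of retinoic acid nor the number of kidneys behind each array.

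GDNF is secreted by the metanephric mesenchyme and binds GFRA1, which presents it to the receptor tyrosine kinase RET on the tip cells of the ureteric bud. Active RET signals through ERK and other kinases and switches on the transcription factor genes Etv4 and Etv5, the secreted factor gene Wnt11, and inhibitors of the same signal such as Spry1 and Dusp6. WNT11 in turn helps to keep Gdnf on in the mesenchyme, and SOX8 and SOX9 act in the bud tip to allow RET target genes to be expressed. In the mouse kidney, retinoic acid made in the stroma is known to maintain Ret in the bud.

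Promoter windows from RefSeq, 250 bases before to 50 after a transcript start on build GRCm38.p6, were at hand for 7 of the 10 genes. The windows of the co-receptor and the ligand, and of the ERK feedback inhibitors Spry1 and Dusp6, are shown because the members of each pair stood apart when retinoic acid was added, a choice made after their values were seen. They are, in the order printed, Gfra1 at chr19:58455349-58455648 (minus strand), Gdnf at chr15:7809798-7810097 (plus strand), Spry1 at chr3:37639697-37639996 (plus strand) and Dusp6 at chr10:99262981-99263280 (plus strand), written 5′ to 3′ with matches to the searched motifs in capitals.
Gfra1: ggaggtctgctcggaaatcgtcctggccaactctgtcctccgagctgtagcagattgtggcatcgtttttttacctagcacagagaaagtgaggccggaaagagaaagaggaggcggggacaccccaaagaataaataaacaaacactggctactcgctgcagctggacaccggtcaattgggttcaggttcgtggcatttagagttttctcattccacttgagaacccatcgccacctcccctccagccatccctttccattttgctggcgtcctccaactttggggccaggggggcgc
Gdnf: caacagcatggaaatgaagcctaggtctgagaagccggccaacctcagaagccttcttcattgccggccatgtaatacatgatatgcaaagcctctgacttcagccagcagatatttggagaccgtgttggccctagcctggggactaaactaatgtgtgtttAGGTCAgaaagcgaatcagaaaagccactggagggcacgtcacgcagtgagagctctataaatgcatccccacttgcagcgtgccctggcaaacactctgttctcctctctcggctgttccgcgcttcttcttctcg
Spry1: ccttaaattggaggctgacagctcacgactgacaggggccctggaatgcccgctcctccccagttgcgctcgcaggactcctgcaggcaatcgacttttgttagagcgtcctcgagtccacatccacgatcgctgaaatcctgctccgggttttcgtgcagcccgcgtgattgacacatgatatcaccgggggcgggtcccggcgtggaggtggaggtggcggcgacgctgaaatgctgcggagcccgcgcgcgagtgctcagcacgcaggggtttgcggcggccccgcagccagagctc
Dusp6: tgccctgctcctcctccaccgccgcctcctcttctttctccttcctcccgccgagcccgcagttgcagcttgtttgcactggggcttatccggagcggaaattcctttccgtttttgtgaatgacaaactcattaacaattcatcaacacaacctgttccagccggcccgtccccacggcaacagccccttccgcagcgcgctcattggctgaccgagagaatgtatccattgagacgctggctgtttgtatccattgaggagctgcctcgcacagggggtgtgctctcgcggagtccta

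The motifs searched on both strands were AGGTCA and AGTTCA, the single elements that retinoic acid receptors bind in pairs, and GGAAGT, a core bound by ETS factors such as ETV4 and ETV5. Of all 32851 promoter windows, 16.3% held AGGTCA, 14.0% held AGTTCA and 23.8% held GGAAGT. The Gdnf window held 1 AGGTCA, starting 87 bases upstream of the transcript start, and the printed windows of Gfra1, Spry1 and Dusp6 held none of the motifs. Among the other windows of the 7 genes, 2 matches to GGAAGT lay in the second window of Etv5. A direct repeat of either element with 5 bases between them was in no member window and in 13 windows of the whole table. These matches are letters in short windows and say nothing of binding.

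Ret had deposited intensities of 969 with retinoic acid, 343 in serum-free medium and 766 in serum. On the log2 scale, used from here on, these are 9.92, 8.42 and 9.58, so the serum-free array stood well below both others. Ret was 2.83-fold higher with retinoic acid than in serum-free medium, the 45th largest increase among 10111 genes at or above the floor, which is 7.12 or an intensity of 140. A gene was called where the difference between a pair of arrays was 2-fold or more and the larger value reached that floor. Ret was the only 1 of the 10 genes called for retinoic acid against serum-free, where 1.05% of all genes were called higher and 0.613% lower. It was also the only 1 called for serum-free against serum, at 2.23-fold lower, where 0.699% of all genes were called lower and 0.876% higher. Between retinoic acid and serum it differed by 0.34, and 0 of the 10 genes were called there, where 1.86% of all genes were called in either direction.

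Gfra1, the co-receptor that binds GDNF, stood at 11.25 with retinoic acid, 10.36 in serum-free medium and 11.10 in serum. Its order over the arrays was that of Ret, with smaller steps. It was 1.86-fold higher with retinoic acid than in serum-free medium and differed by -0.75 between serum-free and serum. The ligand gene Gdnf stood at 9.15 with retinoic acid, 9.31 in serum-free medium and 9.41 in serum. Its differences of -0.15 for retinoic acid against serum-free and -0.10 for serum-free against serum were the smallest of the receptor and ligand genes. As a yardstick, probe sets of the same gene disagreed by up to 0.28 in either of these comparisons (the 95th percentile over 1071 and 1067 pairs of probe sets) and by up to 0.33 in retinoic acid against serum. Both Gdnf differences lay inside that range, and those of Ret and Gfra1 lay outside it. The yardstick covers how far probe sets of a gene disagree on the difference between the same arrays, and not the spread between cultures.

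**Figure D1:**
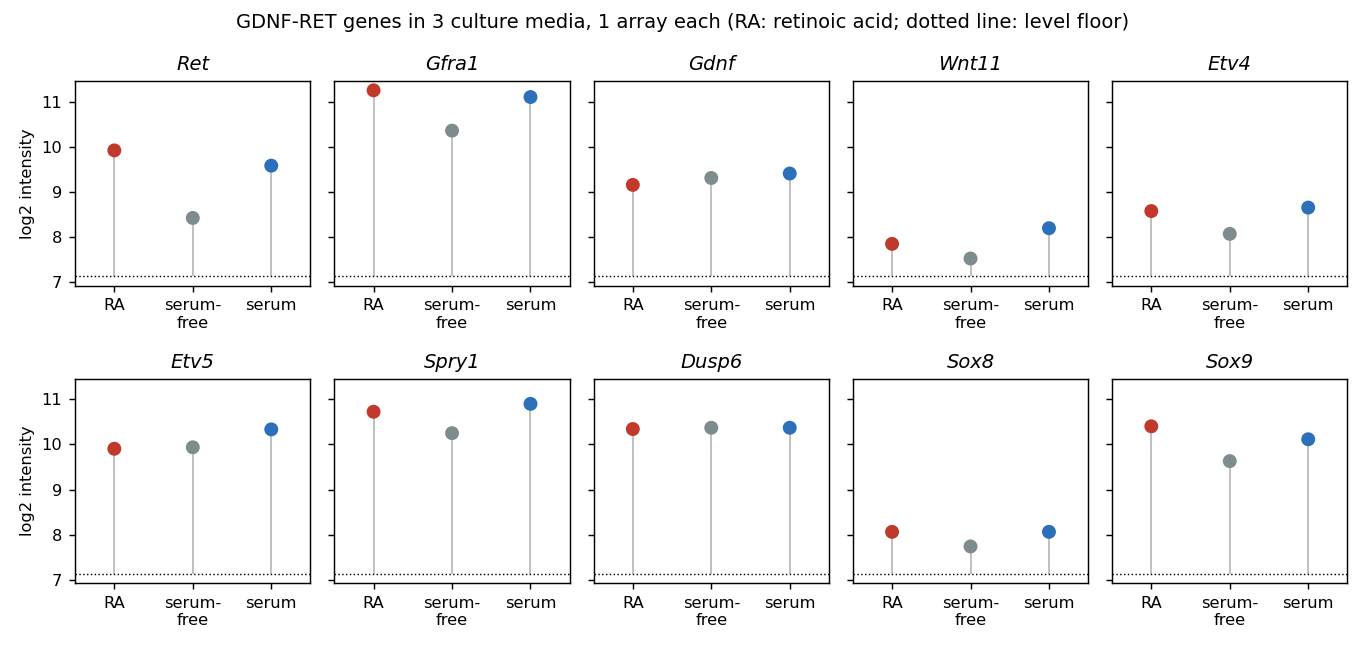
Log2 intensity (vertical axis) of each of the 10 genes on the retinoic acid (RA), serum-free and serum arrays, 1 point per array, with the level floor of 7.12 as a dotted line. Points are to be compared within a gene, since probe sets differ in brightness. The serum-free point is lowest for 7 genes, and for Ret it lies at 8.42, against 9.92 with retinoic acid and 9.58 in serum.

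Among the transcription factor genes switched on by RET, Etv4 stood at 8.57 with retinoic acid, 8.07 in serum-free medium and 8.65 in serum. It was 0.51 higher with retinoic acid than without and differed by -0.58 between serum-free and serum, so that the retinoic acid and serum arrays lay within 0.08 of each other. Etv5, its close relative, stood at 9.91, 9.94 and 10.34 in the same order of media, a difference of -0.03 for retinoic acid against serum-free and of -0.43 for retinoic acid against serum. Etv4 and Etv5 thus had unlike values on the retinoic acid array, where Etv4 lay near its serum value and Etv5 near its serum-free value. A second probe set annotated to Etv5, with the same transcript accessions, stood at 9.36, 9.24 and 9.80 in the same order, with differences of 0.12 for retinoic acid against serum-free and -0.44 for retinoic acid against serum. The sign of the small Etv5 difference between retinoic acid and serum-free therefore depended on the probe set.

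Wnt11, the tip factor that feeds back on Gdnf, stood at 7.85 with retinoic acid, 7.52 in serum-free medium and 8.19 in serum. It was 0.33 higher with retinoic acid than in serum-free medium but 0.35 below serum. Its difference of -0.67 for serum-free against serum was the third largest of the 10 genes in size, after Ret and Gfra1.

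The inhibitors parted as well. Spry1, which encodes a Sprouty protein that restrains RET signalling, stood at 10.73 with retinoic acid, 10.25 in serum-free medium and 10.90 in serum. It was 0.47 higher with retinoic acid than in serum-free medium and differed by -0.65 between serum-free and serum. Dusp6, which encodes a phosphatase that inactivates ERK, stood at 10.34 with retinoic acid and at 10.37 on both the serum-free and serum arrays. Its serum-free and serum values were exactly equal, as they were for 29.4% of the 10241 genes at or above the floor on any array. Such ties come readily from the summary step of the array method and do not measure equal expression.

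Of the SOX genes, Sox9 had the larger differences, standing at 10.40 with retinoic acid, 9.63 in serum-free medium and 10.12 in serum. It was 1.71-fold higher with retinoic acid than in serum-free medium, and was 0.29 above serum. Sox8 stood at 8.06 with retinoic acid, 7.74 in serum-free medium and 8.06 in serum, and its retinoic acid and serum values were exactly equal, as for 27.4% of genes. Sox9 is also a gene of cartilage and of Sertoli cells. Of 8 measured marker genes for these cells, 6, among them Acan and Amh, were below the floor on every array and so could not be called. Of the 2 others, 0 were called in any comparison, which with so few genes is near the share over all genes. The summed intensity of the 8 genes was 662 with retinoic acid, 676 in serum-free medium and 684 in serum. Any part of these cells in the Sox9 value was not tested.

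**Figure D2:**
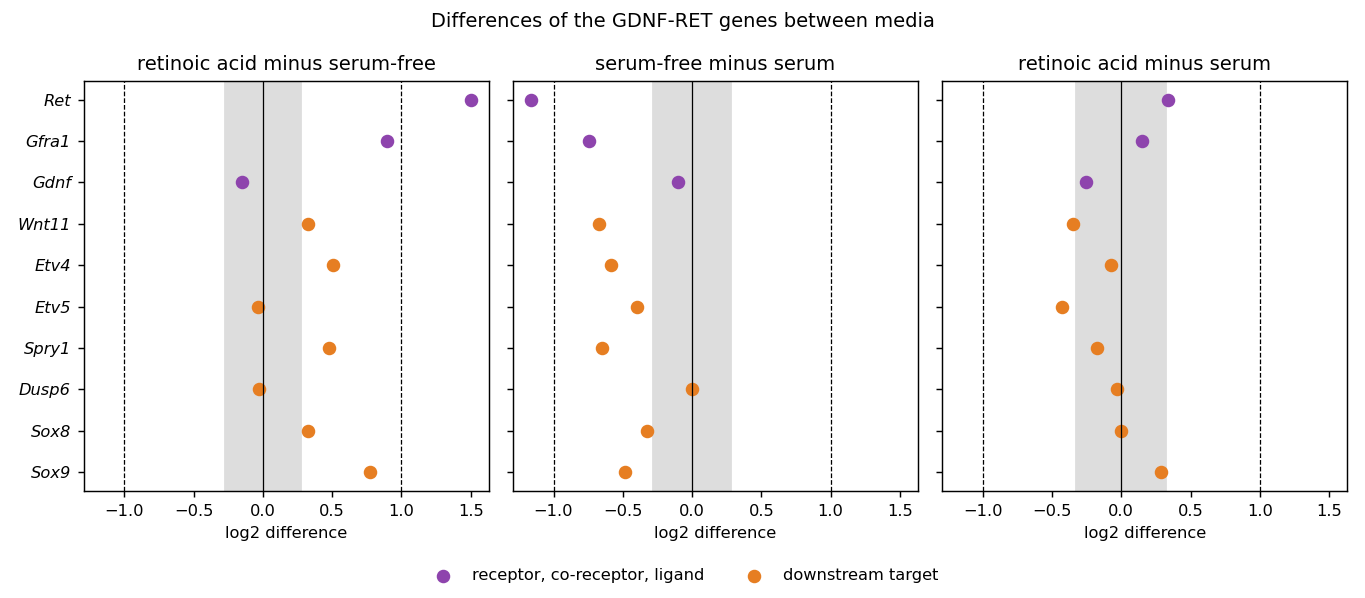
Log2 difference (horizontal axis) of each gene in the 3 comparisons, with the receptor, co-receptor and ligand in purple and the targets in orange. Dashed lines mark 2-fold, and the grey band is the 95th percentile of disagreement between probe sets of 1 gene (0.28, 0.28 and 0.33). Ret alone passes a dashed line, and Gdnf and Dusp6 lie inside the band in all 3 panels.

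Taken by role, the median of Ret, Gfra1 and Gdnf was 0.89 for retinoic acid against serum-free, and that of the 7 targets was 0.33. For serum-free against serum these medians were -0.75 and -0.48, and for retinoic acid against serum 0.15 and -0.08. The first median minus the second was 0.57, -0.26 and 0.23 in these comparisons. The median of the receptor and ligand genes is the value of Gfra1 in all 3, and Gdnf lay below 0 for retinoic acid against serum-free where Ret and Gfra1 lay above it. Against serum, Ret, Gfra1 and Sox9 were above 0 with retinoic acid, Sox8 was tied, and the other 6 genes were below 0. Only Ret (0.34), Wnt11 (-0.35) and Etv5 (-0.43) passed the yardstick of 0.33 there. The signs of the rest give no direction, and the Sox8 tie does not measure equal expression.

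Over all 10 genes the median was 0.40 for retinoic acid against serum-free, with 7 differences above 0 and 3 below. It was -0.53 for serum-free against serum, with 9 below 0 and 1 equal, and -0.05 for retinoic acid against serum. The median over all genes at or above the floor was within 0.01 of 0 in each comparison. With a threshold of 1.5-fold, 3 of the 10 genes were higher with retinoic acid than in serum-free medium (Ret, Gfra1 and Sox9), where 2.41% of all genes were. For serum-free against serum 4 were lower (Ret, Gfra1, Wnt11 and Spry1), where 2.07% of all genes were, and Etv4 lay just short of it. The serum-free array was the lowest of the 3 for 7 of the 10 genes, against 20.9% of the 10241 genes. The first and second comparisons share that array, so their opposite signs are not separate observations. Only strictly lowest values were counted. The serum-free value was tied with that of retinoic acid for 35.3% of the 10241 genes and with that of serum for 29.4%. The members were chosen with earlier results of these data known, so the 2 shares are a description and not a test.

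**Figure D3:**
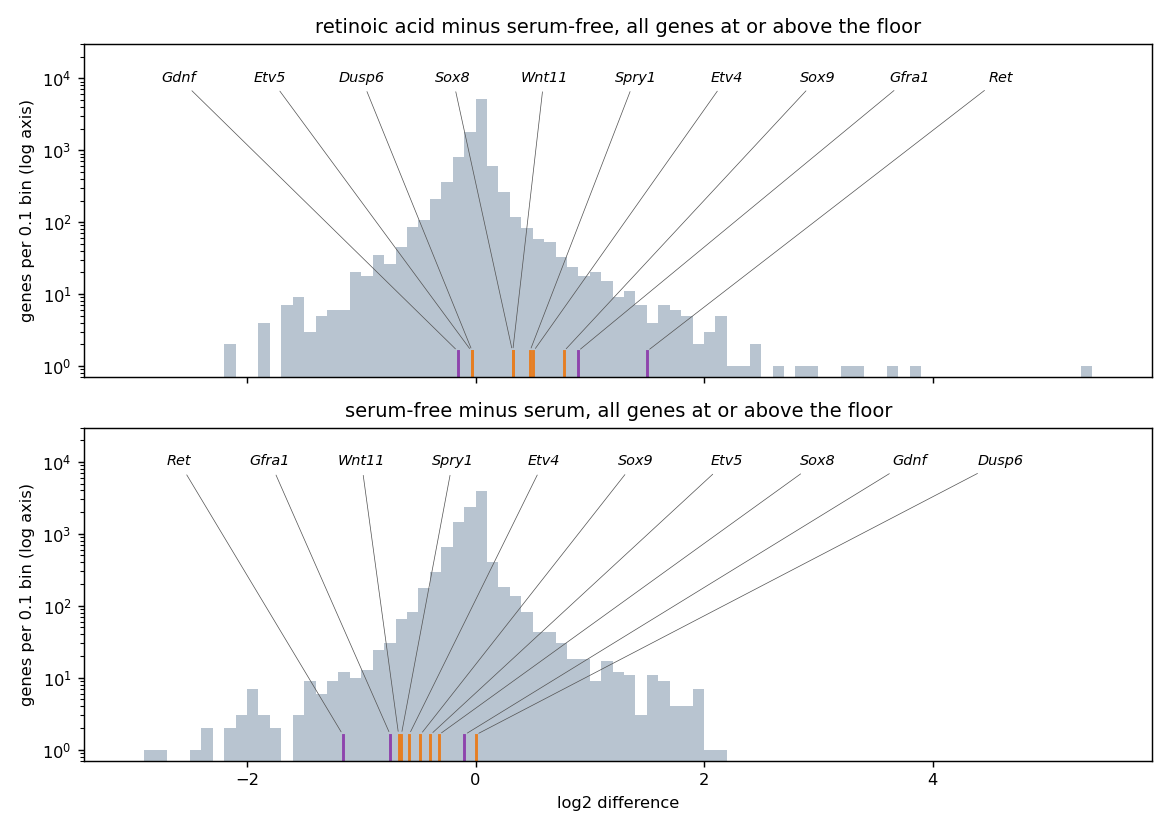
Number of genes (vertical log axis) by log2 difference (horizontal axis, bins of 0.1) for all genes at or above the floor, with ticks for the receptor, co-receptor and ligand in purple and the targets in orange. For retinoic acid minus serum-free the ticks run from -0.15 (Gdnf) to 1.499 (Ret), and for serum-free minus serum from -1.16 (Ret) to 0 (Dusp6).

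An explant holds many cell types, and in bulk RNA fewer bud cells and less RNA per cell cannot be told apart. Kidney markers were present, with Pax2 between 10.56 and 10.77, Wt1 between 10.65 and 11.16 and Six2 between 10.39 and 11.26, of which Wt1 and Six2 were chosen after their values were seen. Of 14 measured markers of the ureteric epithelium, where Ret is made, 2 were called higher with retinoic acid than in serum-free medium. Over all genes 1.05% were called higher there, and the list's median was -0.21. Calb1, a calcium binding protein gene of the bud, was higher by 2.18 and the keratin gene Krt19 by 1.40, while Cldn7 differed by -0.53. The serum-free value of Krt19 (6.50) lay under the floor. The general epithelial genes Cdh1 and Epcam, named after their values were seen, differed by 0.03 and -0.26. For serum-free against serum the list's median was -0.20, with 1 gene called lower, Calb1 at -1.94, where 0.699% of all genes were. The summed intensity of the list was 9791 with retinoic acid, 7847 in serum-free medium and 11270 in serum. Without Calb1, left out after its value was seen, it was 5947, 6999 and 8013 in the same order. The array with the lowest sum was thus serum-free for the full list and retinoic acid without Calb1. Any part of cell make-up in the differences was not tested.

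Ret and GFRA genes also serve neurons and sympathoadrenal cells, and markers of these cells differed between the arrays. Of 13 measured, the glial and neural crest genes Sox10, Foxd3 and S100b were below the floor on every array. Dbh and Th, which encode enzymes of catecholamine synthesis, were called lower with retinoic acid than in serum-free medium, 4.38-fold and 2.83-fold. The Th value with retinoic acid (6.10) lay under the floor. The neuronal gene Stmn2 was called higher, by 1.33. Over all genes 0.613% were called lower and 1.05% higher. In that comparison 7 of the 13 were below 0 and 4 above, and the median was -0.02, or -0.40 when only members reaching the floor were kept. Their summed intensity was 5213 with retinoic acid, 4550 in serum-free medium and 3211 in serum. Without Stmn2, a gene left out after its value was seen, it was 2347 with retinoic acid, 3413 in serum-free medium and 2347 in serum. Which array was the highest thus depended on Stmn2. Their part in the Ret value was not tested. Of 10 macrophage genes, 9 were called higher in serum-free medium than in serum, with Mrc1 at 1.95, where 0.876% of all genes were. The serum value of Mrc1 (6.32) lay under the floor. The list summed to 5608 with retinoic acid, 7716 in serum-free medium and 2489 in serum. The labels do not give the embryos' sex, and Xist, the transcript of the inactive X chromosome, stood at 9.79, 11.48 and 10.84 in that order. The Y-linked gene Eif2s3y stood at 8.64, 7.46 and 8.38, so it was lowest where Xist was highest, and its order over the arrays was that of Ret. The sex make-up of the cultures and the medium cannot be told apart.

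The other members of the GDNF family had patterns unlike those of Ret and Gfra1. Of 7 measured ligand and co-receptor genes, 5 had no value at or above the floor, among them the ligand genes Nrtn, Artn and Pspn. Gfra2, which encodes the neurturin co-receptor, stood at 8.51 with retinoic acid, 9.31 in serum-free medium and 9.09 in serum. Gfra3, which encodes the artemin co-receptor, stood at 7.98, 8.84 and 7.77 in the same order. It was called 2.11-fold higher in serum-free medium than in serum, where 0.876% of all genes were. For both, the serum-free array was the highest of the 3, the reverse of Gfra1.

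Of 24 measured kinases, adaptors and other carriers of the RET signal, 0 were called in any comparison, and the median was 0 in all 3. Both are near the values over all genes, of which 1.05% were called higher and 0.613% lower with retinoic acid than in serum-free medium, so neither is a result about this list. Among those at or above the floor, the largest difference for retinoic acid against serum-free was 0.32 in the adaptor gene Gab2, and that for serum-free against serum was -0.67 in Grb7, whose product is an adaptor that binds RET. Grb7 stood at 8.92 with retinoic acid, 8.77 in serum-free medium and 9.45 in serum. Ligands and receptors of the FGF family, which feed the same ERK cascade, likewise had 0 calls among 9 genes, with Fgf9 0.50 higher with retinoic acid than in serum-free medium and Fgf10 at -0.28.

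Among other genes commonly induced by ERK, the few that passed the yardstick for retinoic acid against serum-free lay below 0, while Etv4 and Spry1 lay above 0. The differences of Etv5 and Dusp6, at -0.03 each, lay inside the yardstick of 0.28 and give no direction. Of 17 measured, 11 were below 0 and 4 above, with a median of -0.14. Over all 19938 genes 5574 were below 0 and 4069 above. Only Myc, Spry4, Egr1 and Spry2 (-0.55) of the 17 lay outside the yardstick. The other genes and the list median lay inside it and give no direction. Of the 17, 0 were called, which is near the share over all genes (1.05% higher and 0.613% lower). The largest among those at or above the floor were Myc at -0.59, the Sprouty gene Spry4 at -0.57 and the immediate early gene Egr1 at -0.56. For serum-free against serum the median was 0.01, with the cyclin gene Ccnd1 at -0.42. Of 4 other tip genes known to depend on GDNF, RET or ETV factors, 1 was called lower with retinoic acid than in serum-free medium. This was Met, the receptor gene for hepatocyte growth factor, at -1.02 (6.96 against 7.98), where 0.613% of all genes were called lower. The Met value with retinoic acid lay under the floor. Mmp14 differed by 0.22, Cxcr4 by -0.13 and Myb by -0.02.

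Gdnf is made by nephron progenitors and nearby mesenchyme. Of 10 progenitor markers, 1 was called higher with retinoic acid than in serum-free medium, Meox1 at 1.81, and 1 lower, Cited1 at -2.13. Over all genes 1.05% were called higher and 0.613% lower. The list median was -0.34, and the summed intensity was 10491 with retinoic acid, 13251 in serum-free medium and 11895 in serum. For serum-free against serum the list median was 0.11, with 1 gene called lower, Tmem100 at -1.10, where 0.699% of all genes were. Of 7 stroma markers, 1 was called higher with retinoic acid than in serum-free medium, Tbx18 at 1.22, against the same 1.05% of all genes. The stroma list median was 0.19. Their part in the Gdnf value was not tested.

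Of 15 measured genes needed for Gdnf expression in the mesenchyme, 0 were called in any comparison, a share near that of all genes (1.86% called for retinoic acid against serum), with medians of -0.04 for retinoic acid against serum-free and -0.01 for serum-free against serum. Eya1, a transcription co-activator gene required for Gdnf, stood at 10.87 with retinoic acid, 11.37 in serum-free medium and 11.10 in serum. Of 8 genes that restrict Gdnf or bud outgrowth, 0 were called, which with so few genes is also near the share over all genes. Slit2, which encodes the ligand of ROBO2, and the forkhead gene Foxc2 were each 0.65 higher with retinoic acid than in serum-free medium, and Bmp4 was 0.47 higher.

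Genes that act on Ret itself held the largest differences near the pathway. Of 10 measured, 3 were called higher with retinoic acid than in serum-free medium and 0 lower, where 1.05% and 0.613% of all genes were. For serum-free against serum 4 were called lower and 0 higher, where 0.699% and 0.876% of all genes were. The list was chosen with earlier results of these data known. Ecm1, a stromal matrix gene that in the mouse restrains Ret in the bud, was higher with retinoic acid by 5.34. The receptor gene Rarb was higher by 2.95 and the transcription factor gene Lhx1 by 1.28. The serum-free value of Lhx1 (6.79) lay under the floor. The same 3 genes and Pax8, a PAX gene of the bud and early nephron at -1.17 and named after its value was seen, were those called lower in serum-free medium than in serum. Emx2, a transcription factor gene of the bud epithelium, differed by -0.34 for retinoic acid against serum-free. Pax2, which acts on both Ret and Gdnf, had the same value in serum-free medium with and without retinoic acid. Such a tie was found for 35.3% of genes in this comparison and does not measure equal expression.

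**Figure D4:**
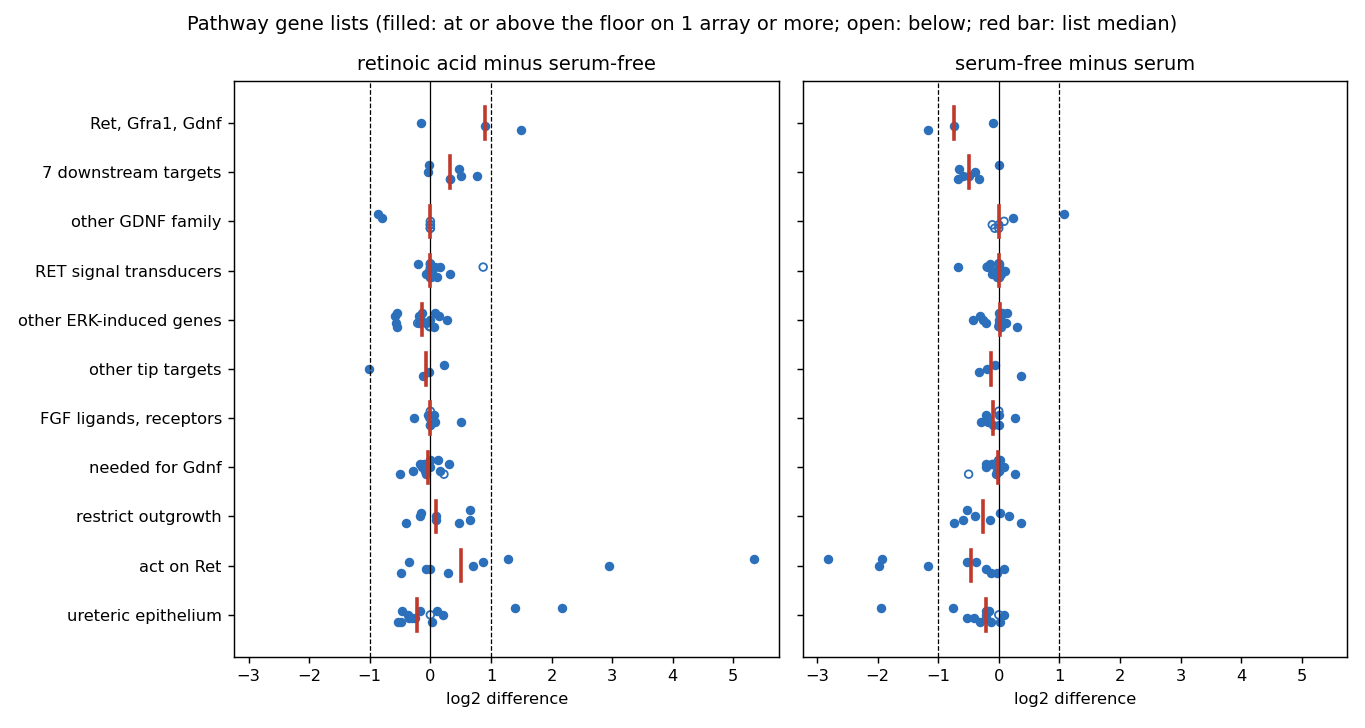
Log2 differences (horizontal axis) of the genes of 11 lists around the GDNF-RET signal, 1 point per gene, for retinoic acid minus serum-free and serum-free minus serum. Filled points reach the floor on at least 1 array, open points do not, red bars are list medians and dashed lines mark 2-fold. The medians of the lists of signal transducers, ERK-induced genes and genes needed for Gdnf lie within 0.15 of 0, and those of the receptor and ligand genes lie at 0.89 and -0.75.

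The genes nearest to Ret in pattern were found by the distance between pairs of differences (retinoic acid minus serum-free, serum-free minus serum). The search covered 10027 other genes at or above the floor on any array. Gene models, genes with Rik names, and olfactory and vomeronasal receptor genes were left out. The 5 nearest were Adcyap1, Fgf15, Cpm, Gata5 and Akap12, at distances from 0.14 to 0.27 on the log2 scale. Adcyap1, a neuropeptide gene, differed by 1.36 and -1.12 and Cpm, a carboxypeptidase gene, by 1.69 and -1.03, against 1.499 and -1.16 for Ret. The serum-free values of Adcyap1 (5.97) and Fgf15 (5.78) lay under the floor. With 3 arrays many genes share a pattern, and 0 of the 5 belong to the lists described here.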

How the data were processed

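Total RNA of the explants was hybridised as biotin-labelled cRNA to Affymetrix Mouse Gene 1.0 ST arrays, per the labels' protocols. The authors deposited linear intensities, 1 per probe set and array, made with Affymetrix Expression Console 1.1 and RMA, per the submitters' processing notes. RMA subtracts background, equalises array distributions by quantiles and summarises probes by median polish. The sources used here do not give its settings. Median intensities over all probe sets were 84.7 with retinoic acid, 85.5 in serum-free medium and 81.5 in serum.

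Analysis used log2 of the deposited values, with Python 3.11.15, pandas 2.3.3 and, for cyclic loess, limma 3.58.1. Of 35556 probe sets, 21789 carried exactly 1 symbol and gave 19938 genes, each represented by its probe set of highest mean. The floor, 7.12, is the median of all gene-level values. With 1 array per medium there are no p-values, and precision is limited by that number. The procedure of calling was tested on simulated data. Named genes were the 10 members, up to 3 genes of largest difference per list among those at or above the floor, and the 5 genes nearest in pattern to each called member, with exceptions stated where they occur. The members and gene lists were chosen with earlier results of these data known. Promoter sequences are from RefSeq (GRCm38.p6). No coordinates go with the array values.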

Additional observations from a re-analysis of the deposited data

How the results depend on the processing

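The alternatives were no floor, a floor at the 25th percentile, 32 added to the intensities, arrays centred on their median, cyclic loess, a second quantile normalization, the mean of all probe sets of a gene, and a threshold of 1.5-fold. The count of members called went to 3 for retinoic acid against serum-free and to 4 for serum-free against serum at 1.5-fold, since that threshold admits smaller differences. Under the other alternatives both counts were 1, and the count for retinoic acid against serum was 0 under all. Over 150 values of single members under the 5 alternatives in scaling, damping or probe set, the largest move was 0.08 and 0 called values changed sign. The uncalled differences of Etv5 for retinoic acid against serum-free and of Dusp6 for retinoic acid against serum changed sign under 1 alternative each. No paired analysis was possible because each medium has 1 array. For the same reason no replicate could be left out.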
